A study of Homo sapiens with 4 samples.

Results

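Messenger RNA of HCT116, a human line established from colorectal adenocarcinoma, was compared between cells that had gone through transfection of a short hairpin RNA (shRNA) vector and puromycin selection and cells that had not. The selected side held 3 arrays: shCONTROL, which carried a non-targeting shRNA vector, and shRNA #1 and shRNA #2, both directed at KSR1, the scaffold that brings RAF, MEK and ERK kinases together. The other side held 1 array of untransfected HCT116 cells. These are all 4 arrays of the series. A gene counted as a member when all 3 hairpin arrays lay on the same side of the untransfected array, and 6541 of the 12468 genes analysed did. Hairpin vectors were delivered by lipofection, and the labels speak of clones selected with puromycin without saying whether an array came from 1 clone or a pool. Vector, transfection, selection, clone, time in culture and array differ together between the untransfected array and the others and cannot be told apart. A common difference from untransfected cells is one that the hairpin lines share whatever their hairpin targets.

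An shRNA vector makes a hairpin transcript that the small RNA machinery cuts and loads into an Argonaute protein, which then guides the silencing of matching messenger RNAs. Puromycin is an aminonucleoside that enters the growing peptide chain at the ribosome and releases it early, so cells survive it only if they carry the vector's resistance gene. The resistant cells can then grow out from few founders, and a non-targeting hairpin line serves as the control for what this handling does to expression.

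Each gene was represented by its brightest probe set on a log2(intensity + 16) scale, and genes were analysed where the mean over the 4 arrays reached 6.08, the median of all probe sets. The difference is the mean of the 3 hairpin arrays minus the untransfected array. The gap is the distance from the untransfected array to the nearest hairpin array, and the range is the spread from the lowest to the highest hairpin array. Median intensities of the 4 arrays lay between 50.7 and 52.0. The actin control probe sets, whose 3' over 5' ratio grows as RNA degrades, gave 2.68 in untransfected cells and 2.01 to 2.22 in the hairpin arrays. The same ratio of the GAPDH control probe sets showed no such difference, at 1.16 in untransfected cells and 1.14 to 1.19 in the hairpin arrays. The part of RNA quality in the differences below was not tested. KSR1 was not on one side: its intensity was 209 in untransfected cells against 211 (shCONTROL), 141 (shRNA #1) and 171 (shRNA #2). The 12 colorectal epithelial markers on the array, of which 9 were bright enough to be analysed, summed to an intensity of 37437 in untransfected cells and 35277 to 45476 in the hairpin arrays. Of the 11 fibroblast, 8 leukocyte and 7 endothelial markers on the array 4, 1 and 1 were bright enough to be analysed. Their list medians in untransfected cells, 5.43, 5.51 and 5.33 on the log2 scale, lay below the filter value. The sums were 771 in untransfected cells against 701 to 722 for fibroblast markers and 280 against 235 to 273 for leukocyte markers. For endothelial markers they were 239 against 218 to 243. Most of these markers were too dim to analyse, so no difference is read from the sums.

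Among the genes that passed the filter, more lay above the untransfected array in all 3 hairpin lines than below it. Of 12468 genes 3769 (30.2%) were higher in all 3 and 2772 (22.2%) were lower in all 3, while 5927 were on both sides or tied. The 3 differences share the untransfected array, and an array that differed from 3 others only by error would be the lowest of the 4 with a probability of 0.25 and the highest with the same. The counts on one side therefore do not by themselves show that a gene differed. This split depends on how the arrays are scaled and on the filter. With the values as deposited 57.6% of the genes on one side were higher. The share was 47.7% after quantile normalization and 37.8% after centring each array on its median. The median difference over all genes moved only from 0.02 to -0.01 and -0.04. Without the filter 4882 genes were higher and 5320 lower, 47.9% higher. With a filter at the 75th percentile 64.8% were higher. Large common differences were few. Only 5 genes (0.0401%) were at least 2-fold higher in all 3 lines and 13 (0.104%) at least 2-fold lower, and at 1.5-fold the counts were 56 and 52.

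The untransfected array stood farther from shRNA #2 than from the other lines. Its median absolute log2 difference was 0.13 to shCONTROL, 0.14 to shRNA #1 and 0.17 to shRNA #2, and between hairpin lines the same measure was 0.14 (shCONTROL and shRNA #1), 0.15 (shCONTROL and shRNA #2) and 0.13 (shRNA #1 and shRNA #2). The hairpin lines therefore differed from each other about as much as from untransfected cells. All 3 differences from untransfected cells share that 1 array, so its own error enters each of them. The gap exceeded the range of the hairpin arrays for 1080 genes on the higher side (8.66%) and 719 on the lower side (5.77%), a measure chosen after the values were seen. A limma fit of the 3 hairpin arrays against the untransfected array called 0 of 12468 genes (0%) in either direction at an adjusted p under 0.05, and 718 genes, 463 higher and 255 lower, had an unadjusted p under 0.05. That fit has 2 residual degrees of freedom and takes the 3 lines as replicates, so its standard errors (SE) hold the spread between different hairpins, and the lone untransfected array is assumed to vary in the same way. For a single gene an exact permutation of the 4 arrays cannot give a p under 0.25.

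**Figure D1:**
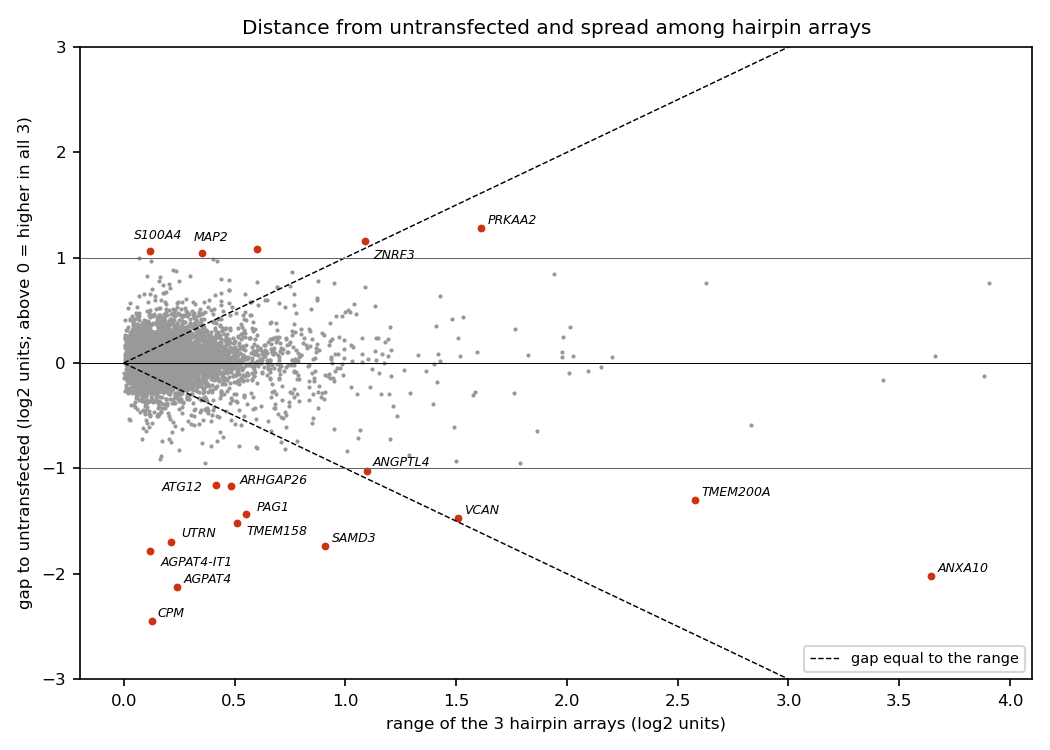
Each point is a gene on one side of the untransfected array in all 3 hairpin arrays; the x axis is the range of the 3 hairpin arrays and the y axis the gap to the untransfected array, both in log2 units, with the 18 genes at least 2-fold away in red and all but 1 of them named. Dashed lines mark a gap equal to the range: AGPAT4, AGPAT4-IT1, UTRN and S100A4 lie far from untransfected cells with hairpin arrays close together. So does CPM, but with hairpin values below the filter value. ANXA10 and TMEM200A lie far away with hairpin arrays spread widely.

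The lower side was led by genes whose 3 hairpin arrays lay close together. For CPM, with hairpin values below the filter value, this closeness cannot be read as a shared level. CPM, a membrane carboxypeptidase that trims basic residues from peptides, had an intensity of 331 in untransfected cells, 42.2 in shCONTROL, 45.3 with shRNA #1 and 47.5 with shRNA #2. All hairpin values lay below the filter value, so they are not told apart from background, and the difference of -2.51 (SE 0.12, limma adjusted p = 0.0926, the smallest of all genes) has no measured lower end. AGPAT4, an acyltransferase that makes phosphatidic acid from lysophosphatidic acid, stood at 528 in untransfected cells against 109 (shCONTROL), 89.5 (shRNA #1) and 105 (shRNA #2). The hairpin arrays were within 0.24 log2 units of each other and -2.13 from untransfected cells at the nearest, and both AGPAT4 probe sets were lower (limma adjusted p = 0.135). AGPAT4-IT1, a transcript annotated within an AGPAT4 intron, was at 390.5 in untransfected cells, 102 in shCONTROL, 94.3 with shRNA #1 and 92.3 with shRNA #2. Signal from AGPAT4 pre-mRNA can reach that probe set, so these may be 1 observation. UTRN, the dystrophin relative utrophin that links actin to the membrane, was at 833 in untransfected cells against 246 (shCONTROL), 210.0 (shRNA #1) and 233 (shRNA #2), and all 3 of its bright probe sets were lower (difference -1.79, SE 0.14, limma adjusted p = 0.210).

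Further genes of the lower side were clear of untransfected cells but, apart from TMEM158, differed more among hairpin lines. ANXA10, a member of the annexin family, had the largest mean difference (-3.97, SE 1.38), with an intensity of 4170.1 in untransfected cells, 208 in shCONTROL, 66.3 with shRNA #1 and 1013 with shRNA #2. Its hairpin arrays spanned 3.64 log2 units, more than the gap of -2.02. VCAN, the matrix proteoglycan versican, was at 1584 in untransfected cells against 187 (shCONTROL), 253 (shRNA #1) and 561 (shRNA #2), and all 5 of its bright probe sets were lower. TMEM200A was at 1088 in untransfected cells, 433 in shCONTROL, 319 with shRNA #1 and 59.3 with shRNA #2, lowest by far with shRNA #2. SAMD3, its neighbour on the chromosome, was at 187 in untransfected cells against 44.99 (shCONTROL), 43.7 (shRNA #1) and 16.5 (shRNA #2), below the filter value in every hairpin array. TMEM158, a membrane protein induced by RAS, was at 1369 in untransfected cells, 413 in shCONTROL, 324 with shRNA #1 and 468 with shRNA #2. Its hairpin arrays lay closer to each other than to untransfected cells.

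PAG1, a membrane adaptor that recruits the kinase CSK and so restrains SRC-family kinases, had an intensity of 314 in untransfected cells against 99.2 (shCONTROL), 67.6 (shRNA #1) and 107 (shRNA #2). ARHGAP26, a GTPase-activating protein, was at 438 in untransfected cells, 128 in shCONTROL, 186 with shRNA #1 and 159.8 with shRNA #2. ATG12, the ubiquitin-like protein joined to ATG5 in autophagosome formation, was at 7216 in untransfected cells against 2419 (shCONTROL), 3033 (shRNA #1) and 3235 (shRNA #2), and its 3 probe sets were all lower. In each of these 3 genes the hairpin arrays lay closer to each other than to untransfected cells. ANGPTL4, a secreted inhibitor of lipoprotein lipase, was at 755 in untransfected cells, 364 in shCONTROL, 239 with shRNA #1 and 162 with shRNA #2, just past the 2-fold line in shCONTROL. Of the 13 genes at least 2-fold lower in all 3 lines, 9 had a gap larger than the hairpin range. Just outside the 2-fold line lay WNT16 (gap -0.95), the IP3 receptor ITPR1 (-0.95) and the acyltransferase GPAT3 (-0.93).

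**Figure D2:**
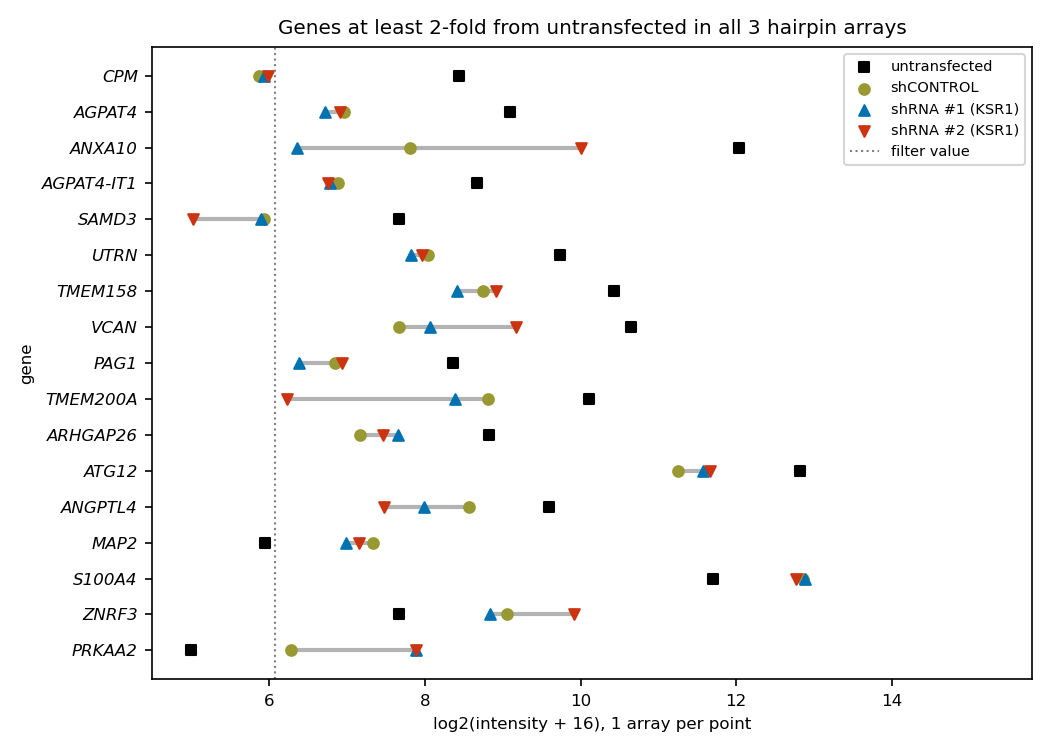
Each row is 1 of the 18 genes at least 2-fold from untransfected cells in all 3 hairpin arrays, of which 1 is not shown, and each point is 1 array on the log2(intensity + 16) axis; grey bars span the 3 hairpin arrays and the dotted line is the filter value of 6.08. The hairpin points of AGPAT4, UTRN and S100A4 nearly coincide, those of ANXA10 and TMEM200A spread over 3.64 and 2.58 log2 units, and PRKAA2 is below the filter value in untransfected cells.

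On the higher side S100A4, a calcium-binding protein linked to cell motility and metastasis, had the tightest hairpin values of the 5 genes at least 2-fold higher. Its intensity was 3317 in untransfected cells against 7393 (shCONTROL), 7539.6 (shRNA #1) and 6937 (shRNA #2). The hairpin arrays were within 0.12 log2 units and the difference was 1.13 (SE 0.12, limma adjusted p = 0.754). ZNRF3, a ubiquitin ligase that removes Frizzled receptors and is itself a Wnt target, was at 188 in untransfected cells, 515 in shCONTROL, 439.9 with shRNA #1 and 954 with shRNA #2, highest with shRNA #2. MAP2, a microtubule-associated protein of neurons, was at 45.5 in untransfected cells against 146 (shCONTROL), 111 (shRNA #1) and 127 (shRNA #2), below the filter value only in untransfected cells. PRKAA2, the alpha-2 catalytic chain of AMP-activated protein kinase, which senses energy shortage, was at 15.99 in untransfected cells, 61.6 in shCONTROL, 221 with shRNA #1 and 219 with shRNA #2. It was near the bottom of the scale in untransfected cells, so the difference of 2.35 has no measured size there, and shCONTROL lay well below both KSR1 hairpins.

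Just under the 2-fold line AMOTL2, an angiomotin-like YAP regulator, was at 183 in untransfected cells against 401 (shCONTROL), 381 (shRNA #1) and 386 (shRNA #2), with a gap of 0.995 and a range of 0.07. The chromatin organiser SATB1 (gap 0.98), the endothelial lipase LIPG (0.97), sarcoglycan epsilon SGCE (0.88), the ETS repressor ETV6 (0.88), the Wnt receptor FZD1 (0.86) and the transcription factor TFAP2A (0.83) followed. EHF, an epithelial ETS factor, was at 469.6 in untransfected cells, 855 in shCONTROL, 2079.9 with shRNA #1 and 3328 with shRNA #2, with hairpin arrays spread over 1.94 log2 units. AMOTL2, ETV6 and EHF followed the naming rule, and the other genes of this paragraph were chosen after their values were seen.

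Genes with smaller gaps, chosen after their values were seen, differed in how close together the hairpin arrays were. TNKS2, a tankyrase that marks proteins such as axin for degradation, was at 856 in untransfected cells against 484 (shCONTROL), 513 (shRNA #1) and 513 (shRNA #2), a hairpin range of 0.08. OXA1L, which inserts proteins into the inner mitochondrial membrane, was at 1201 in untransfected cells, 2034 in shCONTROL, 1964 with shRNA #1 and 2147 with shRNA #2. CMTM6, a membrane protein that stabilises PD-L1, was at 1438 in untransfected cells against 2525 (shCONTROL), 2479.6 (shRNA #1) and 2946 (shRNA #2), with its 3 bright probe sets all higher. TNFRSF12A, the receptor of the cytokine TWEAK, was at 430.5 in untransfected cells, 689 in shCONTROL, 748 with shRNA #1 and 720.0 with shRNA #2. SRSF7, a splicing factor, was at 2208 in untransfected cells against 3858 (shCONTROL), 3939 (shRNA #1) and 5239.7 (shRNA #2), and all 4 of its probe sets were higher. On the lower side IRS1, the insulin receptor's docking protein, was at 1773 in untransfected cells, 899.7 in shCONTROL, 784 with shRNA #1 and 1053 with shRNA #2, and the actin-bundling PALLD was at 5628 in untransfected cells against 2149 (shCONTROL), 3155 (shRNA #1) and 1561 (shRNA #2). The hairpin range was 0.44 for SRSF7 and 0.42 for IRS1, and for PALLD it was 1.01, more than its gap.

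A mean difference alone did not mark a common difference. Of 37 genes at least 2-fold higher by the mean 32 were higher in all 3 lines, and of 40 at least 2-fold lower 38 were lower in all 3. BAMBI, a decoy receptor of TGF-beta signalling, had a mean difference of 1.03 from an intensity of 263 in untransfected cells, 428 in shCONTROL, 143 with shRNA #1 and 2585 with shRNA #2. It was above untransfected cells in shCONTROL and shRNA #2 and below in shRNA #1, and without shRNA #2 the difference of BAMBI was -0.071. PPARG, a nuclear receptor of lipid metabolism, was at 1004 in untransfected cells against 278 (shCONTROL), 314 (shRNA #1) and 1188 (shRNA #2), low in shCONTROL and shRNA #1 only. The hyaluronan-binding CEMIP was at 93.5 in untransfected cells, 689 in shCONTROL, 129 with shRNA #1 and 87.9 with shRNA #2, high in shCONTROL. FOXQ1 at 25.1 in untransfected cells against 51.8 (shCONTROL), 20.02 (shRNA #1) and 252 (shRNA #2) and the kallikrein protease KLK7 at 255 in untransfected cells, 245 in shCONTROL, 398 with shRNA #1 and 2027 with shRNA #2 were highest with shRNA #2, as was CSTA at 278 in untransfected cells against 679 (shCONTROL), 269.9 (shRNA #1) and 1273 (shRNA #2). These 6 genes lay on both sides of untransfected cells, and 1 further such gene is not reported here.

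Promoter sequences of 2 genes with tight hairpin values are shown as the 250 bases before a RefSeq start (GRCh38.p14), 5' to 3' on the gene's strand. Matches to TATAAA on either strand are in capitals. Only windows with a match were kept for display. Both belong to the genes with a match. AGPAT4, also with tight values, and CPM, with hairpin values below the filter value, do not. S100A4 lies at chr1:153545807-153546056 on the minus strand, and its match begins 31 bases before the start. The UTRN window lies at chr6:144582898-144583147 on the plus strand, and its match is on the opposite strand, at -215 from that start. Whether this is the main start of UTRN was not tested.
S100A4: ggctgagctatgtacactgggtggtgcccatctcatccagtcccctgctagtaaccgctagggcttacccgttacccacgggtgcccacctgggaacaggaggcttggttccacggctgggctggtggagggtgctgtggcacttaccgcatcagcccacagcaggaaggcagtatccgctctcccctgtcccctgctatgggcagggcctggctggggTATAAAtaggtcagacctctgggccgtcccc
UTRN: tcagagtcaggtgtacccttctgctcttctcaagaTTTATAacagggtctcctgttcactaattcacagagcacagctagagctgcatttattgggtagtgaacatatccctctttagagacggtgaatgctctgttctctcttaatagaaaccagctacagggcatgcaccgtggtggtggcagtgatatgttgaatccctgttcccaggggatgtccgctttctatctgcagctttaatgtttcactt
The letters TATAAA were in 5 of the 15 genes at least 2-fold away that had a promoter entry (33.3%), ANGPTL4, ANXA10, S100A4 and UTRN among them, against 7.99% of the 10100 analysed genes with an entry and 10.7% of all 35116 windows. A gene counted when any window listed for it held a match, while the share of all windows counts each window. A match is a description of these windows and not a binding site, and the difference between these shares was not tested.

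The lists of drug handling, ribosome rescue, proteasome, heat shock and small RNA machinery genes each had a share higher in all 3 lines below the 30.2% of all genes. Among these lists the share lower was above the 22.2% of all genes only for ribosome rescue (30.0%). Of 10 puromycin and drug handling genes 1 was higher in all 3 lines and 2 were lower, with a median difference of -0.03 against 0.02 over all genes. ABCC2, an organic anion exporter, was at 544 in untransfected cells, 275 in shCONTROL, 450.1 with shRNA #1 and 415 with shRNA #2, and the exporter ABCC1 was at 1197 in untransfected cells against 1271 (shCONTROL), 1281 (shRNA #1) and 1451 (shRNA #2). Among 20 genes of ribosome rescue and stalled translation 3 were higher and 6 lower (median -0.05). The proteasome list had 4 of 26 higher and 1 lower, and its median of 0.00 came from lines on opposite sides: 22 of the 26 genes lay below untransfected cells in shCONTROL (list median -0.08), 17 above with shRNA #1 (0.01) and 24 above with shRNA #2 (0.06). The heat shock list had 1 of 14 higher and 3 lower (median -0.03), with 12 of the 14 genes below untransfected cells in shCONTROL and 9 above with shRNA #2. Of 16 small RNA machinery genes 2 were higher and 2 lower (median 0.07). XPO5, which exports precursor hairpins from the nucleus, was at 801 in untransfected cells, 942 in shCONTROL, 988 with shRNA #1 and 979.6 with shRNA #2, higher in all 3 lines by at least 0.23 on the log2 scale, and TARBP2, a Dicer partner, was higher by at least 0.05.

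Interferon and RNA sensing genes, which can respond to double-stranded RNA, differed by line. The list had 8 of 26 (30.8%) higher in all 3 and 3 (11.5%) lower, against 30.2% and 22.2% of all genes. Its median was 0.09 in shCONTROL, -0.06 with shRNA #1 and 0.36 with shRNA #2. IFIT1, an interferon-induced RNA-binding protein, was at 40.01 in untransfected cells against 39.1 (shCONTROL), 60.1 (shRNA #1) and 199 (shRNA #2), and IFI27 was at 45.7 in untransfected cells, 35.6 in shCONTROL, 34.3 with shRNA #1 and 349.6 with shRNA #2, so both stood high with shRNA #2 alone. PARP9 was higher in all 3 lines, at 102 in untransfected cells against 133 (shCONTROL), 128 (shRNA #1) and 252 (shRNA #2). ISG20, an interferon-induced exonuclease, was lower in all 3, at 139 in untransfected cells, 109.8 in shCONTROL, 88.3 with shRNA #1 and 73.1 with shRNA #2, and IFI35 was also lower in all 3 (gap -0.36).

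The list of ATF4 and unfolded protein response genes had the largest share of higher genes among the lists with at least 9 genes analysed. ATF4 is a transcription factor translated when eIF2 alpha is phosphorylated, and it drives amino acid transport and synthesis. Of 29 genes 20 (69.0%, against 30.2% of all genes) were higher in all 3 lines and 1 was lower, and the median difference was 0.27. The list median was 0.12 in shCONTROL, 0.28 with shRNA #1 and 0.32 with shRNA #2. In these lines 24, 25 and 24 of the 29 genes lay above untransfected cells. ATF4 itself was at 2698 in untransfected cells against 3564 (shCONTROL), 3981 (shRNA #1) and 3737 (shRNA #2). SLC7A11, the cystine importer, was at 292 in untransfected cells, 424 in shCONTROL, 628 with shRNA #1 and 774 with shRNA #2, and its smallest distance from untransfected cells was 0.51.

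CHAC1, ASNS, PSAT1 and XBP1 of this list had larger values with both KSR1 hairpins than in shCONTROL. CHAC1, which degrades glutathione, was at 90.1 in untransfected cells against 96.5 (shCONTROL), 221 (shRNA #1) and 149.8 (shRNA #2). ASNS, asparagine synthetase, was at 1811 in untransfected cells, 2066 in shCONTROL, 2552 with shRNA #1 and 2692 with shRNA #2. PSAT1, of serine synthesis, was at 2297 in untransfected cells against 2408 (shCONTROL), 3558 (shRNA #1) and 3759.5 (shRNA #2), and XBP1, the transcription factor of the IRE1 branch, was at 429.8 in untransfected cells, 461 in shCONTROL, 579 with shRNA #1 and 806 with shRNA #2. In shCONTROL CHAC1, PSAT1 and XBP1 were within 0.10 log2 units of untransfected cells. The 1 gene lower in all 3 was DDIT4, an mTORC1 inhibitor that hypoxia also induces, at 6779 in untransfected cells against 6333 (shCONTROL), 4204 (shRNA #1) and 2838 (shRNA #2). CHOP (DDIT3) lay on both sides of untransfected cells, at 262 in untransfected cells, 244 in shCONTROL, 306 with shRNA #1 and 205 with shRNA #2. ASNS, PSAT1, XBP1 and DDIT3 were chosen after their values were seen. By limma 0 of the 29 genes passed over all genes.

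The promoters of CHAC1 and ASNS are shown because both hold TGATGNAA, the core of the composite element to which ATF4 and C/EBP proteins bind. They are the 250 bases before a RefSeq start (GRCh38.p14) with the match in capitals. CHAC1 lies at chr15:40953221-40953470 on the plus strand, with the match on the opposite strand, and ASNS at chr7:97872409-97872658 on the minus strand.
CHAC1: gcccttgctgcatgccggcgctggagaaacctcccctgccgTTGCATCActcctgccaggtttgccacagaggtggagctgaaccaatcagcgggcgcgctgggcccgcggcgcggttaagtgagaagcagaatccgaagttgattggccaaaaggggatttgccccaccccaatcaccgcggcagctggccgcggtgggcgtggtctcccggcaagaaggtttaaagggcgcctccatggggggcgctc
ASNS: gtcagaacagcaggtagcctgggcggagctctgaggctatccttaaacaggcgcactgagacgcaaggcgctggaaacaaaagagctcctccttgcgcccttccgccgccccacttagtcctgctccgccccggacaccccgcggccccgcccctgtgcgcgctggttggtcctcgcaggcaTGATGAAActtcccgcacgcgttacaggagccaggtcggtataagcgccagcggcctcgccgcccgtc
TGATGNAA, searched on both strands, was in 4 of the 18 list genes higher in all 3 lines that had a promoter entry (22.2%) and in 1 of the 9 others (11.1%). It was in 2.37% of the analysed genes with an entry and 3.14% of all windows. The list was made of genes tied to ATF4, so this share does not bear on these cells.

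Hypoxia and glycolysis genes had the largest share of lower genes among the same lists, with far larger differences for the KSR1 hairpins than for shCONTROL. Hypoxia-inducible factors are stabilised at low oxygen and raise glucose uptake, glycolysis and mitophagy genes. Of 38 genes 0 were higher and 19 were lower in all 3 lines, against 22.2% of all genes, with a median difference of -0.42. The list median was -0.02 in shCONTROL, -0.60 with shRNA #1 and -0.54 with shRNA #2. Above untransfected cells lay 18 of the 38 genes in shCONTROL, 1 with shRNA #1 and 2 with shRNA #2. Among the 19 genes the shCONTROL difference was farthest from 0 for ANGPTL4 (-1.02), NDRG1 (-0.72), ANKRD37 (-0.71) and ERO1A (-0.49), and HK2 followed at -0.29.

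ANGPTL4 is described above with the genes at least 2-fold lower. NDRG1, a stress and hypoxia-induced gene, was at 5778 in untransfected cells against 3496 (shCONTROL), 1543 (shRNA #1) and 1510.1 (shRNA #2). ANKRD37, a small ankyrin protein and hypoxia-inducible factor target, was at 2688 in untransfected cells, 1636 in shCONTROL, 786 with shRNA #1 and 778 with shRNA #2. HILPDA, a lipid droplet protein induced by hypoxia that is not on the list and was chosen after its values were seen, was at 2023 in untransfected cells against 1139 (shCONTROL), 702 (shRNA #1) and 682 (shRNA #2). In ANGPTL4, NDRG1, ANKRD37 and HILPDA shCONTROL lay between untransfected cells and the KSR1 hairpins. ADM, the peptide adrenomedullin, was at 7819 in untransfected cells, 7337 in shCONTROL, 4537 with shRNA #1 and 1813 with shRNA #2, and the aldolase ALDOC at 1785 in untransfected cells against 1689 (shCONTROL), 646 (shRNA #1) and 646 (shRNA #2), so both counted as lower in all 3 with shCONTROL at only -0.09 and -0.08 log2 units from untransfected cells. The glucose transporter SLC2A1 lay on both sides, at 1081 in untransfected cells, 1506 in shCONTROL, 750.2 with shRNA #1 and 3313 with shRNA #2, and so did the arrestin-domain gene ARRDC4, at 416 in untransfected cells against 505 (shCONTROL), 110.3 (shRNA #1) and 177 (shRNA #2). By limma 0 of the 38 genes passed over all genes.

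**Figure D3:**
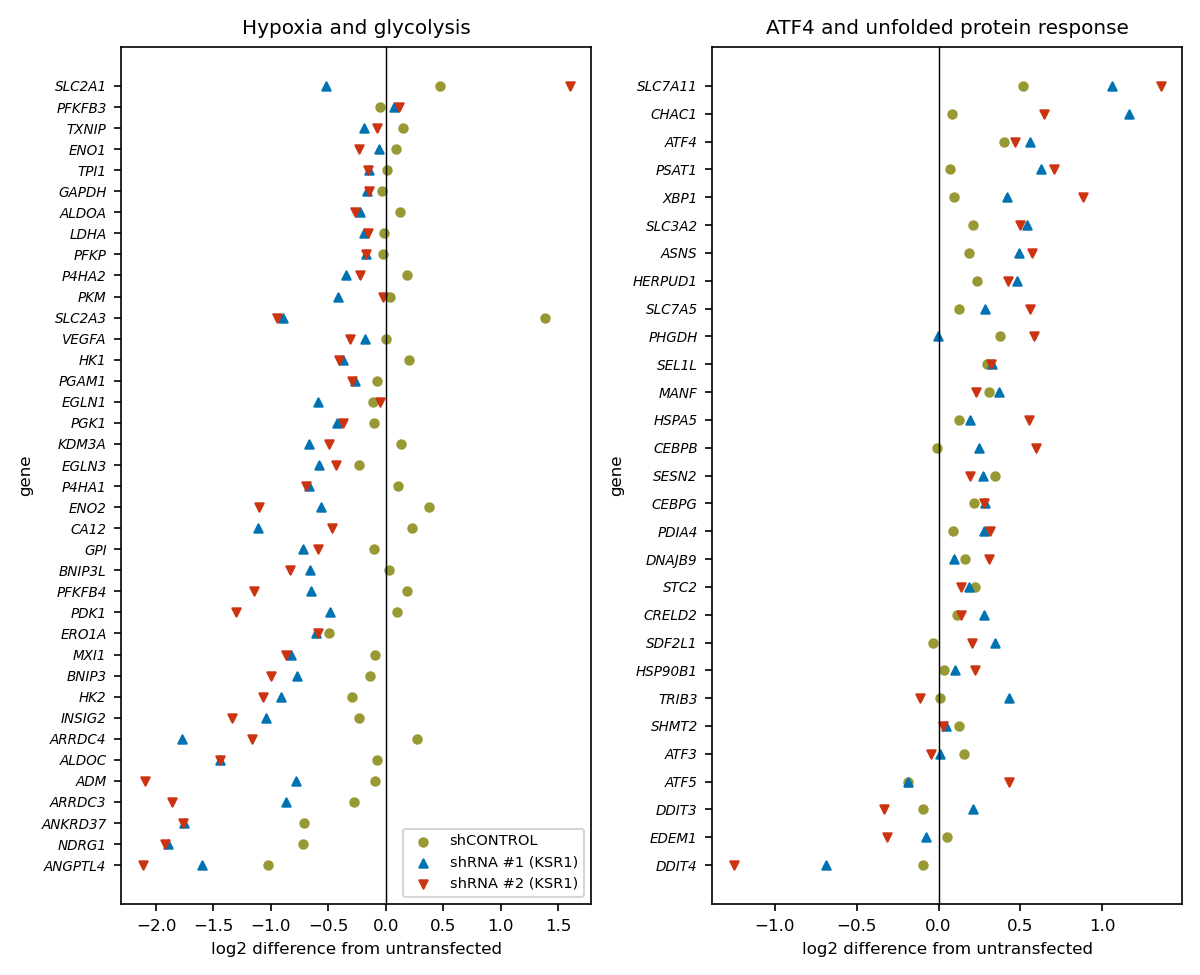
Log2 differences from untransfected cells (x axis) of the 38 hypoxia and glycolysis genes (left) and the 29 ATF4 and unfolded protein response genes (right), ordered by their mean difference, with 1 point per hairpin array. On the left shCONTROL has points on both sides of 0 (list median -0.02), while shRNA #1 lies above 0 for 1 and shRNA #2 for 2 of the 38 genes; on the right the 3 lines mostly lie above 0 together.

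The promoters of ANGPTL4 and ANKRD37 are shown with the letters ACGTG, the core to which hypoxia-inducible factors bind, in capitals on either strand. They are the 250 bases before a RefSeq start (GRCh38.p14), ANGPTL4 at chr19:8363905-8364154 and ANKRD37 at chr4:185396591-185396840, both on the plus strand.
ANGPTL4: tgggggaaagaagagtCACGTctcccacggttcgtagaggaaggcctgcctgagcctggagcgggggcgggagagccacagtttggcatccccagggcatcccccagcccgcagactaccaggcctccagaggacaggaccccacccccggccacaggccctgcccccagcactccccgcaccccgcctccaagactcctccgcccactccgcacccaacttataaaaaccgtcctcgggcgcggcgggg
ANKRD37: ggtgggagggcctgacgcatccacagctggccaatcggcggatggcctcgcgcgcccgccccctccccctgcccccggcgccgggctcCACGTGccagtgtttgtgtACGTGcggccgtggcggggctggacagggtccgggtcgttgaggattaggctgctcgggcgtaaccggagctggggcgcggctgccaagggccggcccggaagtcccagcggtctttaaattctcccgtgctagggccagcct
The ANKRD37 window had 3 matches, a pair of which overlap on opposite strands as CACGTG, a sequence that other helix-loop-helix factors also recognise. ACGTG was in 14 of the 18 list genes lower in all 3 that had an entry (77.8%), in 8 of the 16 others, in 28.3% of analysed genes and in 18.5% of all windows. The list was chosen for known hypoxia genes, so its share against all genes is not a result of these arrays.

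More of the p53 targets lay above untransfected cells in shCONTROL and with shRNA #1 than with shRNA #2. HCT116 cells carry a working p53, which raises cell cycle arrest and stress genes. Of 26 targets 14 (53.8%, against 30.2% of all genes) were higher in all 3 lines and 2 (7.69%, against 22.2%) were lower, and the median difference was 0.15. Line by line the list median was 0.27 in shCONTROL, 0.15 with shRNA #1 and 0.06 with shRNA #2, and 24, 20 and 14 of the 26 genes lay above untransfected cells. GDF15, a stress-induced cytokine, was at 1680.1 in untransfected cells, 4061 in shCONTROL, 2919 with shRNA #1 and 3519 with shRNA #2. TP53I3, an oxidoreductase of the p53 response, was at 149 in untransfected cells against 295 (shCONTROL), 205 (shRNA #1) and 306 (shRNA #2). TP53INP1 was at 385 in untransfected cells, 707 in shCONTROL, 480.4 with shRNA #1 and 521 with shRNA #2, and PLK2, a stress-responsive polo-like kinase, was at 449 in untransfected cells against 834 (shCONTROL), 503 (shRNA #1) and 914 (shRNA #2). For each of these 4 genes shRNA #1 was the hairpin line nearest to untransfected cells. GADD45A went the other way, at 1945 in untransfected cells, 1732 in shCONTROL, 1493 with shRNA #1 and 1186 with shRNA #2, lowest with shRNA #2. The mean difference of CDKN1A, another p53 target, was 0.22.

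Transcripts of ERK pathway output were more often higher than lower, as were the genes analysed as a whole. Of 32 genes 14 (43.8%, against 30.2% of all genes) were higher in all 3 and 5 (15.6%, against 22.2%) were lower, with a median of 0.14, and the list median was 0.13 in shCONTROL, 0.20 with shRNA #1 and 0.03 with shRNA #2. DUSP6, the phosphatase that ERK induces and that dephosphorylates ERK, was at 1772 in untransfected cells against 5805 (shCONTROL), 3003 (shRNA #1) and 3253 (shRNA #2), highest in shCONTROL, and its 3 bright probe sets were all higher. The cytokine LIF was at 384 in untransfected cells, 813 in shCONTROL, 908 with shRNA #1 and 616 with shRNA #2. EPHA2, an ephrin receptor, was at 492 in untransfected cells against 698 (shCONTROL), 753 (shRNA #1) and 717 (shRNA #2), and its hairpin arrays lay within 0.11 log2 units. ETV1, an ETS factor, was lower at 336 in untransfected cells, 153 in shCONTROL, 177 with shRNA #1 and 62.8 with shRNA #2, with 3 of 3 bright probe sets lower, and FOSL1, an AP-1 subunit stabilised by ERK, was lower at 1413 in untransfected cells against 966 (shCONTROL), 982 (shRNA #1) and 589.8 (shRNA #2). Without shCONTROL the list median was 0.035. Of 18 KSR and RAF-MEK-ERK components 5 were higher in all 3 and 2 lower, with a median of 0.00. YWHAB, a 14-3-3 protein that binds RAF and KSR1, was higher by at least 0.13, and MAP2K1, the kinase MEK1, was lower in all 3 (gap -0.12).

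Wnt targets followed shCONTROL more than the common comparison. The list had 6 of 18 (33.3%) higher in all 3 and 3 (16.7%) lower, close to the 30.2% and 22.2% of all genes. Its median was 0.45 in shCONTROL, -0.08 with shRNA #1 and 0.08 with shRNA #2. Besides ZNRF3, SOX9, a progenitor transcription factor of the crypt, was higher in all 3, at 864 in untransfected cells, 2493 in shCONTROL, 1623 with shRNA #1 and 1196 with shRNA #2, and SP5 was at 65.4 in untransfected cells against 103 (shCONTROL), 88.2 (shRNA #1) and 103 (shRNA #2). DKK1, a secreted Wnt inhibitor, was lower in all 3, at 6191 in untransfected cells, 3986 in shCONTROL, 2721 with shRNA #1 and 5079.9 with shRNA #2. AXIN2, a standard readout of the pathway, lay on both sides, at 229.6 in untransfected cells against 344 (shCONTROL), 208 (shRNA #1) and 933 (shRNA #2). Of 35 TGF-beta and BMP genes 14 (40.0%) were higher in all 3 and 3 lower (median 0.09). ID3, a BMP-induced inhibitor of helix-loop-helix factors, was at 738 in untransfected cells, 1381 in shCONTROL, 1144 with shRNA #1 and 2107 with shRNA #2, and the receptor BMPR2 was at 152 in untransfected cells against 244 (shCONTROL), 238 (shRNA #1) and 328 (shRNA #2), while SMAD9 was lower at 278 in untransfected cells, 202 in shCONTROL, 120.1 with shRNA #1 and 146 with shRNA #2.

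Lipid genes had members on both sides. Of 24 genes of glycerolipid synthesis 11 (45.8%) were higher in all 3 and 7 (29.2%) lower, against 30.2% and 22.2% of all genes. Their median was 0.11. The lower genes included AGPAT4 and GPAT3, which add acyl chains to the glycerol backbone; GPAT3 was at 979 in untransfected cells against 169 (shCONTROL), 507 (shRNA #1) and 455 (shRNA #2), lowest in shCONTROL. LPIN1 and LPIN2, phosphatidate phosphatases, were lower in all 3, with gaps of -0.37 and -0.45. PLPP3, a surface enzyme that removes phosphate from lysophosphatidic acid, was higher at 88.1 in untransfected cells, 153 in shCONTROL, 169 with shRNA #1 and 219 with shRNA #2, with 3 of 3 bright probe sets higher. Of 26 sterol and fatty acid synthesis genes 13 were higher in all 3 and 2 lower (median 0.11), with list medians of 0.04, 0.09 and 0.26 in shCONTROL, shRNA #1 and shRNA #2. LSS, lanosterol synthase, was at 446 in untransfected cells against 615 (shCONTROL), 663 (shRNA #1) and 864 (shRNA #2), and TM7SF2, a sterol reductase, was at 203 in untransfected cells, 320.1 in shCONTROL, 262 with shRNA #1 and 264 with shRNA #2. ACSL4, which activates arachidonate, was lower at 372 in untransfected cells against 240.2 (shCONTROL), 282 (shRNA #1) and 249.7 (shRNA #2).

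Surface, matrix and signalling genes were mixed as well. Of 27 matrix and hyaluronan genes 4 were higher in all 3 and 8 (29.6%) lower (median -0.02). After VCAN the lower ones were led by HAS3, a hyaluronan synthase, at 2217 in untransfected cells, 1010.0 in shCONTROL, 1466 with shRNA #1 and 1116 with shRNA #2. Of 15 integrins 6 were higher and 4 lower (median 0.03): ITGAE was higher, at 1162 in untransfected cells against 1725 (shCONTROL), 1863 (shRNA #1) and 1973 (shRNA #2), and ITGA5, the fibronectin receptor subunit, was lower (gap -0.40). The 33 proteases and inhibitors had 9 higher and 9 lower, among them the metalloproteinase inhibitor TIMP2, higher at 1063 in untransfected cells, 1817 in shCONTROL, 1679.7 with shRNA #1 and 2875 with shRNA #2. Of 36 semaphorins, ephrins and guidance genes 11 were higher and 9 lower, and SEMA4B was lower (gap -0.58). Receptor tyrosine kinases and ligands had 9 of 31 higher and 5 lower, and FGF19, a bile acid-regulated growth factor, was higher by at least 0.55. Of 19 chemokines, cytokines and NF-kappaB genes 5 were higher and 4 lower, and CXCL16 was at 324 in untransfected cells against 550.2 (shCONTROL), 526 (shRNA #1) and 498 (shRNA #2), a hairpin range of 0.14. Among 16 stem and progenitor surface markers ALDH1A3, a retinaldehyde dehydrogenase, was higher at 2294 in untransfected cells, 3776 in shCONTROL, 3760.5 with shRNA #1 and 4348 with shRNA #2, and NT5E, the ectonucleotidase CD73, was lower at 1227 in untransfected cells against 651 (shCONTROL), 808 (shRNA #1) and 99.9 (shRNA #2), with shRNA #2 far below the rest.

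**Figure D4:**
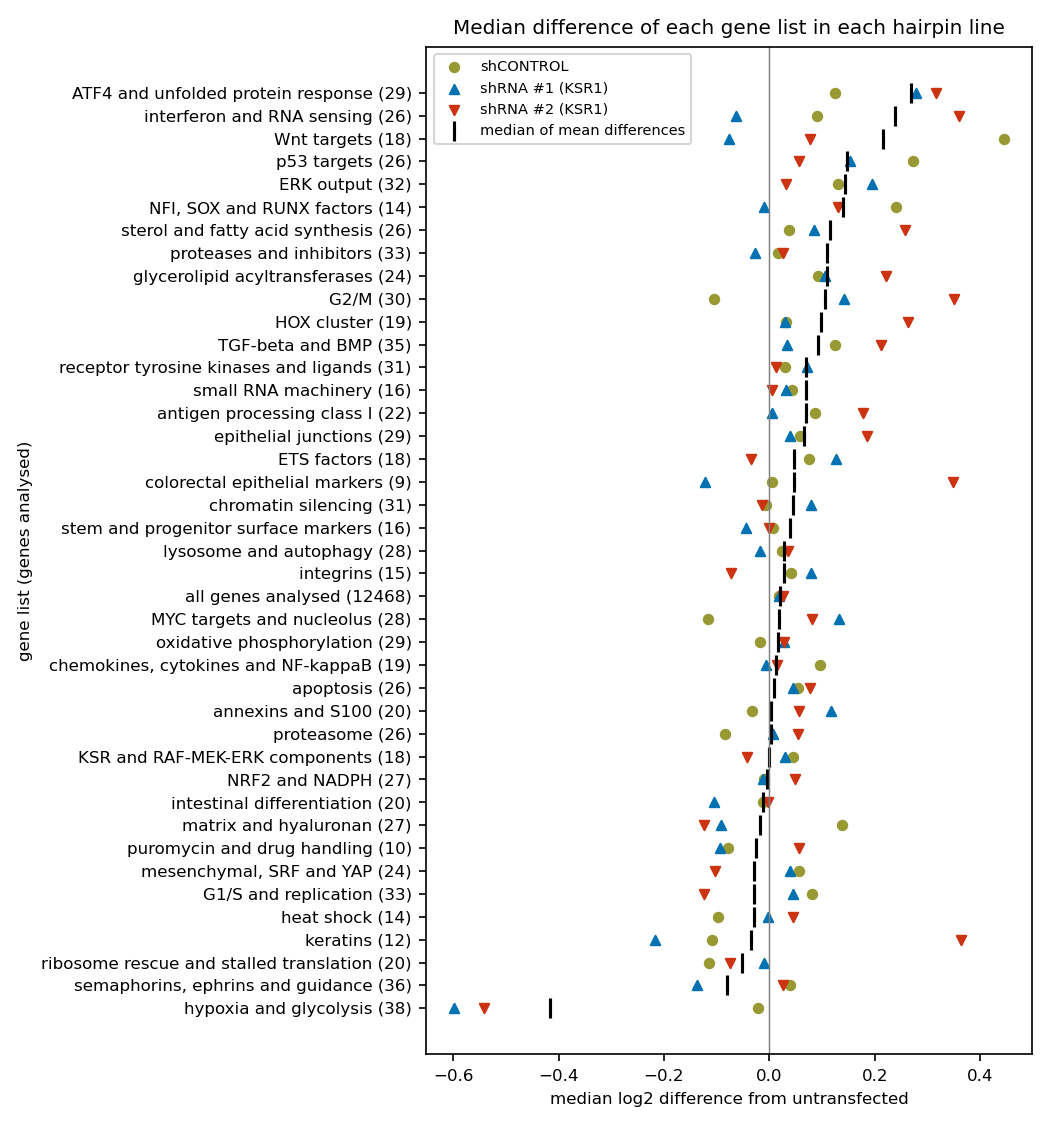
Median log2 difference from untransfected cells (x axis) of each gene list with at least 9 genes analysed and of all genes, with 1 point per hairpin array and a black bar for the median of the mean differences; the number of genes is in brackets. The 3 lines lie on the same side for the ATF4 (0.12, 0.28, 0.32) and p53 (0.27, 0.15, 0.06) lists. They also do so for other lists, such as ERK output (0.13, 0.20, 0.03), and for all genes (0.02, 0.02, 0.03). They lie far apart for hypoxia and glycolysis (-0.02, -0.60, -0.54), Wnt targets and keratins.

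Some genes with large common differences lay next to each other in the genome. Of the 108 genes at least 1.5-fold away in all 3 lines, 7 pairs were immediate neighbours among the analysed genes in RefSeq order, and both genes of every pair were on the same side. The lower pairs were SAMD3 and TMEM200A, AGPAT4 and AGPAT4-IT1, VWDE and ETV1, LRP2BP and ANKRD37, CCDC112 and FEM1C, and FEM1C and ATG12, and the higher pair was PLPP3 and PRKAA2. In RefSeq AGPAT4-IT1 lies within AGPAT4, and SAMD3 with TMEM200A and LRP2BP with ANKRD37 overlap at their ends, so these pairs are uncertain as separate observations. This look at neighbours was chosen after the values were seen. Around ATG12 and around ANKRD37 the difference ran over longer stretches. In the 5 genes CCDC112, FEM1C, ATG12, AP3S1 and COMMD10 all were lower in all 3 lines, which held for 10 of 12350 windows of 5 neighbouring genes (0.081%). Another of these 10 windows ran from SNX25 to CFAP96 and held LRP2BP, UFSP2 and ANKRD37, a gene of the hypoxia list. Its median difference of -1.08 was lower than the -0.74 of the window around ATG12. FEM1C, a substrate receptor of a ubiquitin ligase, was at 811 in untransfected cells, 380.2 in shCONTROL, 472 with shRNA #1 and 366 with shRNA #2, and AP3S1, an adaptor subunit of vesicle transport, was at 11922 in untransfected cells against 7580.5 (shCONTROL), 8258 (shRNA #1) and 8414 (shRNA #2). In the 10 genes from DCP2 to SEMA6A 7 were lower in all 3 and 1 was higher, with a median difference of -0.48, the lowest of the 12227 windows of 10.

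A stretch on the higher side held HBE1, embryonic globin, and the olfactory receptor genes OR51B4, OR51B2, OR51B5 and OR51I1, all 5 higher in all 3 lines with a median of 0.62. Windows of 5 with all genes higher numbered 57 of 12350 (0.462%). HBE1 was at 1567 in untransfected cells, 2736 in shCONTROL, 1760.5 with shRNA #1 and 2383 with shRNA #2 and OR51B4 at 159 in untransfected cells against 309 (shCONTROL), 251 (shRNA #1) and 256 (shRNA #2). The OR51B genes are paralogs of 1 olfactory receptor subfamily, and whether their probe sets share signal was not tested, so they are uncertain as separate observations. Over the 10 genes from HBB to CAVIN3 8 were higher and TRIM6 alone was lower in all 3. Copy number of these stretches was not tested.

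**Figure D5:**
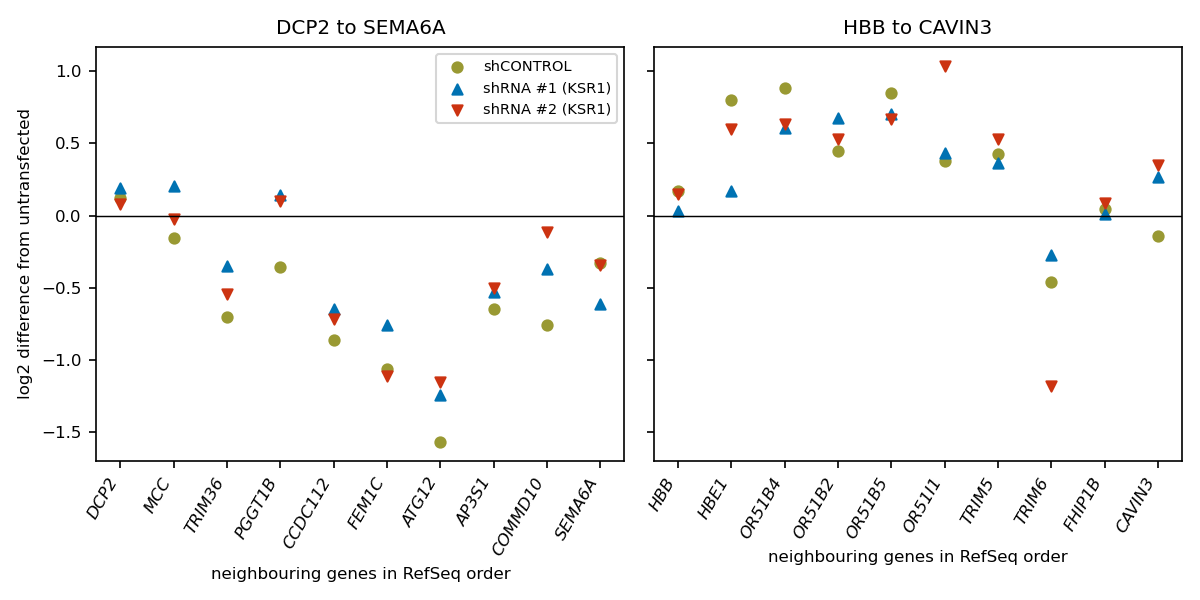
Log2 differences from untransfected cells (y axis) of 10 neighbouring analysed genes in RefSeq order (x axis) from DCP2 to SEMA6A and from HBB to CAVIN3, with 1 point per hairpin array. From CCDC112 to COMMD10 all 3 lines lie below 0, and from HBB to TRIM5 all 3 lie above 0.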

How the data were processed

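One-colour Affymetrix arrays of 54675 probe sets measured RNA from 4 HCT116 cultures, 1 array per group, so no group has a replicate, and precision is limited by the number of arrays. Per the labels, biotinylated cRNA was made from 2.5 micrograms of total RNA. The deposited values are intensity values on a linear scale, 1 per probe set and array. Background correction, probe set summary and scaling between arrays were steps not given in the sources used here. Detection calls were not used, no scaling was added, and 0 columns were left unused.

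Of the probe sets 41097 had 1 gene symbol in the platform annotation, 1801 several and 11777 none, and 41043 of the first matched RefSeq, with 0 symbols updated. A gene took its brightest probe set, which left 12468 of 19775 genes after the filter. Differences were computed from the deposited values as log2(intensity + 16), which understates differences of dim genes. limma 3.58.1 in R 4.3.3 (lmFit, eBayes, Benjamini-Hochberg) was tested on simulated data, where it recovered 18 of 100 genes changed by 1 and 61 of 100 changed by 2 log2 units with 0 false calls. All 4 simulated arrays, untransfected included, were drawn with the spread of the 3 hairpin arrays. The simulated counts therefore do not check whether the real untransfected array varies like the hairpin arrays. Tables were handled with pandas 2.3.3 in Python 3.11.15.

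The members and 44 gene lists (1263 genes, 914 analysed) were chosen with earlier results of these data known. Lists are described by counts and medians, without a test. Named genes were KSR1, up to 15 genes per direction with a gap of at least 1 log2 unit, the 4 per direction with the largest mean difference not on one side, and in each list up to 4 members on one side and 2 others by size of the difference. Genes outside this rule were chosen after their values were seen, and 1 gene at least 2-fold higher is not reported here. RefSeq tables (GRCh38.p14) gave names, gene order and promoters, of which the 250 bases before each listed start were searched on both strands. A gene held a motif when any window listed for it did, while shares of all windows count each window. Alternatives changed the pseudocount, filter, probe set rule, scaling, prior, weights and the arrays included.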

Additional observations from a re-analysis of the deposited data

How the results depend on the processing

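The 5 genes at least 2-fold higher became 8 with a pseudocount of 1, 3 with a pseudocount of 64, 3 with a filter at the 75th percentile, 2 with the mean over probe sets and 3 after median centring. The 13 at least 2-fold lower became 8 with the stricter filter, which left 8 of them in the analysis. Genes lower in all 3 numbered 5320 without a filter, 1480 with the stricter filter and 4192 after median centring. Without a filter 4882 genes were higher in all 3, so fewer were higher than lower. With 1 hairpin array left out the counts were 12 to 19 at least 2-fold higher, 24 to 25 at least 2-fold lower, 4647 to 4955 higher and 3575 to 3903 lower, as fewer arrays must meet the rule. A trend and robust prior in limma called 1 gene, CPM (adjusted p = 0.0319), and the smallest adjusted p lay between 0.0572 and 0.993 with 1 array left out. The ERK output median was 0.035 without shCONTROL and up to 0.15 with another array left out. The median difference of hypoxia and glycolysis lay between -0.63 and -0.26 and the ATF4 median between 0.20 and 0.29 in the same runs. The difference of BAMBI was 1.94 without shRNA #1 and reversed to -0.071 without shRNA #2, and 32 of 2682 values of named genes under the alternatives had another sign. After median centring 2545 of the 12468 genes were higher in all 3 and 4192 lower, so the split turned toward lower values. In that run 18 of the 29 ATF4 genes, 10 of the 26 p53 targets and 12 of the 32 ERK output genes were still higher. Of the 38 hypoxia and glycolysis genes 23 were lower in all 3. The causes of these shifts were not tested, other than the smaller number of genes or arrays. No paired analysis was possible because each group has 1 array. The single untransfected array is a limit, as its own error enters every difference.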

Other observations

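Over all genes 30.2% were higher and 22.2% lower in all 3 lines, and gene groups not described above are given beside these shares. G2/M genes had 9 of 30 higher and 2 lower in all 3, with list medians of -0.10 in shCONTROL, 0.14 with shRNA #1 and 0.35 with shRNA #2. G1/S and replication genes had 8 of 33 higher and 8 lower. MYC targets and nucleolus had 5 of 28 higher and 5 lower, oxidative phosphorylation 9 of 29 higher and 4 lower, and lysosome and autophagy 9 of 28 higher and 6 lower. Of 26 apoptosis genes 11 (42.3%) were higher and 4 (15.4%) lower, shares close to those of ERK pathway output, with list medians of 0.05, 0.04 and 0.08 in shCONTROL, shRNA #1 and shRNA #2. Of 27 NRF2 and NADPH genes 8 were higher and 6 lower, and of 22 genes of class I antigen processing 6 and 3. Chromatin silencing had 11 of 31 higher and 4 lower.

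Among lineage genes, epithelial junctions had 11 of 29 higher in all 3 and 3 lower, colorectal epithelial markers 2 of 9 higher and 1 lower, and intestinal differentiation 3 of 20 higher and 6 lower. Keratins had 0 of 12 higher and 2 lower, and their median was -0.22 with shRNA #1 but 0.36 with shRNA #2. Mesenchymal, SRF and YAP genes had 5 of 24 higher and 2 lower, and annexins and S100 genes 4 of 20 higher and 1 lower. Of 16 stem and progenitor surface markers 3 were higher and 3 lower. Transcription factor lists had 6 of 14 (NFI, SOX and RUNX), 6 of 18 (ETS) and 4 of 19 (HOX cluster) higher, and 2, 4 and 3 lower. NFIB, a nuclear factor I member, was at 68.2 in untransfected cells, 329 in shCONTROL, 115 with shRNA #1 and 335 with shRNA #2, with its 3 bright probe sets higher. HOXB8 was higher in all 3 (gap 0.58). Of 5 cancer-testis genes analysed 2 were higher and 0 lower. Fibroblast markers had 0 of 4 higher and 2 lower, and the 1 leukocyte and the 1 endothelial marker analysed were each lower in all 3.

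The window of 10 neighbouring genes with the highest median difference ran from KLK1 to KLK12 (0.56), but 4 of its genes were higher in all 3 and 2 lower. Its members KLK10 and KLK6 were higher in all 3 lines and highest with shRNA #2: KLK10 was at 168 in untransfected cells against 297 (shCONTROL), 457 (shRNA #1) and 4672 (shRNA #2) and KLK6 at 252 in untransfected cells, 437 in shCONTROL, 804 with shRNA #1 and 2783 with shRNA #2. Kallikrein genes are similar in sequence, so single probe sets may share signal.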
